A study of Homo sapiens with 9 samples.

Results

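The genes of Polycomb repressive complex 2 (PRC2) were examined in SKNO-1 cells with and without knockdown of ASXL2. The 10 symbols listed were EZH1, EZH2, EED, SUZ12, RBBP4, RBBP7, JARID2, MTF2, PHF19 and PHF1, and all 10 were found among the 25680 gene symbols of the count files. Where a symbol had several RefSeq transcript rows, the row with the highest total over the 9 samples stood for the gene, and the 10 genes had 29 rows in all. All 10 passed the filter on low counts that left 14199 genes for testing. SKNO-1 is a line of human acute myeloid leukaemia cells, which carries the AML1-ETO (RUNX1-RUNX1T1) fusion and was grown with GM-CSF. Control cells (shControl) were compared with cells that received either of 2 shRNAs against ASXL2 (shASXL2-2 and shASXL2-3), with 3 RNA-seq samples in each group. The labels write EV for the control, whereas the study describes a control shRNA, and the extraction text of these samples speaks of sorted marrow cells, which does not match the cell line. Each group holds samples numbered 1, 13 and 25, and the labels do not say what these numbers mean. All samples are from 1 cell line.

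PRC2 places methyl groups on lysine 27 of histone H3, and the trimethylated form (H3K27me3) marks silenced developmental genes. EZH2, or its relative EZH1, is the catalytic subunit, and it works only when bound to EED, which reads the mark, and to SUZ12, the scaffold. RBBP4 and RBBP7 bind histones and also serve other chromatin complexes. One form of the complex carries a Polycomb-like protein (PHF1, MTF2 or PHF19) and another carries JARID2, and these accessory subunits help it to find its targets. EZH2 is known to be abundant in dividing cells and EZH1 in resting ones. ASXL proteins are cofactors of the deubiquitinase BAP1, and the study followed H3K27me3 in these cells, so the comparison asked whether transcripts of the complex that writes this mark differed after ASXL2 knockdown.

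The samples held 27714431 to 35406063 counts with 1 row per gene, so 3 counts, the limit that a count of 0 allows, correspond to 0.0847 to 0.108 CPM, a unit in which the counts are scaled to a common library size. ASXL2, the target, was measured at 67.9, 67.9 and 74.7 CPM in the control samples (numbers 1, 13 and 25 in this order here and throughout). The shASXL2-2 samples gave 30.4, 36.2 and 36.2 CPM and the shASXL2-3 samples 26.9, 29.1 and 41.1 CPM, below every control sample. Its log2 fold change averaged over both shRNAs was −1.08 (SE 0.13, 95% interval −1.37 to −0.78, adjusted p = 0.177) without the sample number in the model, and −1.09 (SE 0.083, 95% interval −1.27 to −0.90, adjusted p = 0.000980) with the number as a block. Of the markers of the line, RUNX1, RUNX1T1, KIT, PTPRC and MPO were expressed in every sample, whereas CD34 was at 0.0680 to 0.309 CPM. Of 8 markers of other cells, CD3E and HBB were at 0, 5 others had at most 6 counts in any sample, and PECAM1 was at 1.75 to 3.92 CPM. In a fit of group and number over all 9 samples, 46.3% of all genes differed between the samples numbered 1 and the others. Each result is given with this in view. In the control group, chi-square per degree of freedom was 25.2 between numbers 1 and 13, 56.2 between 1 and 25, and 24.7 between 13 and 25. Only in the shRNA groups was the sample numbered 1 clearly the furthest from the others.

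The promoter windows of EZH1, EZH2, SUZ12 and PHF19 are printed because these 4 genes differed between the samples numbered 1 and the others, as described further on. Each window is 300 bases from RefSeq (GRCh38.p14), 250 before to 50 after an annotated start site, read along the gene, and was placed on the build of the files (hg19, GRCh37) by its only exact match on the gene's chromosome. Capitals mark E2F-type letters, which were searched as TTCCCGC or TTCGCGC or TTGGCGC or TTGCCGC on both strands.
EZH2, chr7:148581334-148581633, minus strand: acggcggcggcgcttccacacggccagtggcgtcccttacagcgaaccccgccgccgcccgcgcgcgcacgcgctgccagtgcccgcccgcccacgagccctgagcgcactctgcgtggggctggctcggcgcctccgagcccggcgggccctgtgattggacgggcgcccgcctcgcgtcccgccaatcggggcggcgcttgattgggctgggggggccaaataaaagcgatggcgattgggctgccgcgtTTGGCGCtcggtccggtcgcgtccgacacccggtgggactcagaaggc
SUZ12, chr17:30263776-30264075, plus strand: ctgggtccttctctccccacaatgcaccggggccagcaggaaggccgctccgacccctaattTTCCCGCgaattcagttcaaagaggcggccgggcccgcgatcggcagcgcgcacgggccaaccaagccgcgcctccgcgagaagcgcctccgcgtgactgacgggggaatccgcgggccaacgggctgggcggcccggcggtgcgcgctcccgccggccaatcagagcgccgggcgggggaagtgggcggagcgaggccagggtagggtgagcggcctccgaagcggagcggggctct
PHF19, chr9:123639417-123639716, minus strand: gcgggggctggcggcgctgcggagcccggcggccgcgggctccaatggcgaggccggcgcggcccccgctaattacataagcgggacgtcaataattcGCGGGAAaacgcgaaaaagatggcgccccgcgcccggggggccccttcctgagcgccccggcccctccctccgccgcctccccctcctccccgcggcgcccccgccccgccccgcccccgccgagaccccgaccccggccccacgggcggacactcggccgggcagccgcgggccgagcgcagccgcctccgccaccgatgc
EZH1, chr17:40897009-40897308, minus strand: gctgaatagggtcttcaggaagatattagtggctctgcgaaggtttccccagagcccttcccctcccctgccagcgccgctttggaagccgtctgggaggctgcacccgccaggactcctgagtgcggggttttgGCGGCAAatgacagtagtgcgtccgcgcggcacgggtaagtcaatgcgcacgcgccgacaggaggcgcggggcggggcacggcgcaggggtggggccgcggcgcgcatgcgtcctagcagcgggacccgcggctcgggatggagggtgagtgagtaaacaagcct
All 4 windows held 1 such match, which began at +3 in EZH2, at −188 in SUZ12, at −152 in PHF19 and at −115 in EZH1, counted from the start site. EZH2 and PHF19 each have another window in the table, and neither held a match. Over the 10 genes, 7 had a match in at least 1 of their 15 windows, while 13% of all 35116 windows and 24.1% of the 10025 tested genes with a window did. MTF2, RBBP4 and RBBP7, which did not pass between the samples numbered 1 and the others in the fit of all samples, held a match too. EZH1 differed in the direction opposite to EZH2, SUZ12 and PHF19. The windows of the 10 genes are 52.3% to 79.7% G or C, and no test was made of these shares. The letters CCAAT, searched on both strands, were in windows of 7 of the 10 genes against 42.7% of the tested genes, and 4 of them lay in the EZH2 window printed here. The letters TGTGGT or TGCGGT, which RUNX proteins are known to bind, were in a window of 1 of the 10 genes, JARID2, against 24.2% of the tested genes. A match to these letters is not a binding site, and no binding was measured here.

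Across the 10 genes, no transcript level was found to differ after ASXL2 knockdown. None passed an adjusted p of 0.05 with shASXL2-2, with shASXL2-3, with both averaged or between the shRNAs, and the edgeR fit without the block called 0% of all 14199 genes in each of these 4 comparisons. At an unadjusted p under 0.05 the count was also 0 of 10 in all 4, where 5.37%, 5.09%, 6.63% and 2.06% of all genes passed. With the sample number as a block, which narrowed the error, 0 of 10 passed again in each comparison at either threshold. Of all genes, 0.282% passed the adjusted threshold with shASXL2-2, 0.416% with shASXL2-3, 1.1% with both averaged and 0.106% between the shRNAs. At the unadjusted threshold these shares were 18.7%, 18.7%, 20.4% and 11.9%. DESeq2's Wald test called 0 of the 10 members as well, with and without the block, while calling 22 to 629 genes in the 3 comparisons with the control.

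EZH2, the main methyltransferase of dividing cells (chr7:148504349-148581413, minus strand, GRCh37 like all positions given), was measured at 68.3, 71.6 and 75.7 CPM in the control samples. Its level was at 67.9, 76.3 and 75.5 CPM with shASXL2-2 and at 60.4, 71.1 and 75.4 CPM with shASXL2-3. The 3 groups overlapped, and in each of them the sample numbered 1 was the lowest. These are levels in bulk RNA, in which fewer cells with a transcript and less of it per cell cannot be told apart. The log2 fold change was 0.027 with shASXL2-2 and −0.060 with shASXL2-3, and averaged over both it was −0.016 (SE 0.089, 95% interval −0.22 to 0.18, adjusted p = 0.992). EZH1, the alternative catalytic subunit (chr17:40852293-40897067, minus strand), was at 39.2, 29.4 and 32.6 CPM in the control samples. Its values were 31.1, 27.2 and 30.7 CPM in the shASXL2-2 samples and 47.9, 23.7 and 31.0 CPM in the shASXL2-3 samples, so the groups overlapped and the sample numbered 1 was the highest in each. Averaged over both shRNAs the log2 fold change of EZH1 was −0.084 (SE 0.20, 95% interval −0.52 to 0.36, adjusted p = 0.984), the widest interval of the 10 genes. The sign with shASXL2-3 depended on the samples numbered 1, since it was 0.018 over all 9 samples and −0.18 without these 3, with adjusted p = 0.997 and 0.944.

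**Figure D1:**
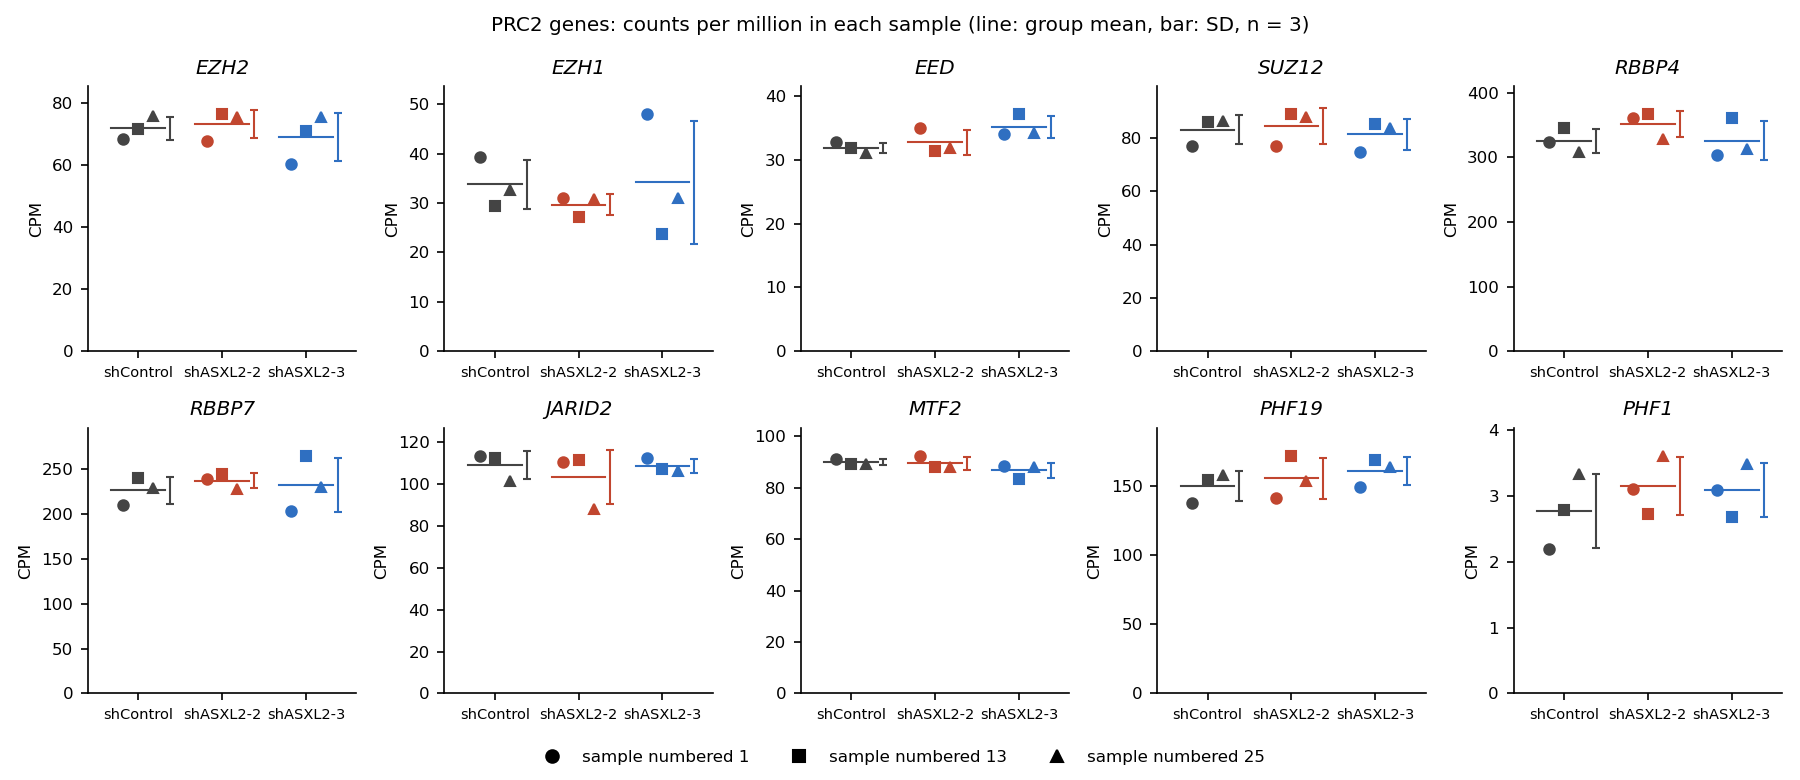
CPM (vertical axis) of each PRC2 gene in the 9 samples, by group (horizontal axis), with the sample number shown by the marker. The line is the group mean and the bar at its right the SD (n = 3). The groups overlap in nearly every panel, and the samples numbered 1 (circles) are highest in EZH1 and lowest in EZH2, SUZ12 and PHF19 in all 3 groups.

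Per kilobase of transcript, which allows levels of different genes to be compared, EZH2 stood at 27.1 ± 1.40 CPM per kb (SD, n = 3) in the control cells and EZH1 at 7.28 ± 1.08. The ratio of EZH2 to EZH1 counts per kb was 3.04, 4.26 and 4.05 in the control samples numbered 1, 13 and 25. It was 3.81, 4.90 and 4.29 with shASXL2-2 and 2.20, 5.24 and 4.25 with shASXL2-3. EZH2 was the higher of the pair in all 9 samples, the groups overlapped, and the lowest ratio of each group was that of the sample numbered 1. With shASXL2-3 the ratio spanned the widest range, with its lowest and highest values the extremes of all 9 samples.

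**Figure D2:**
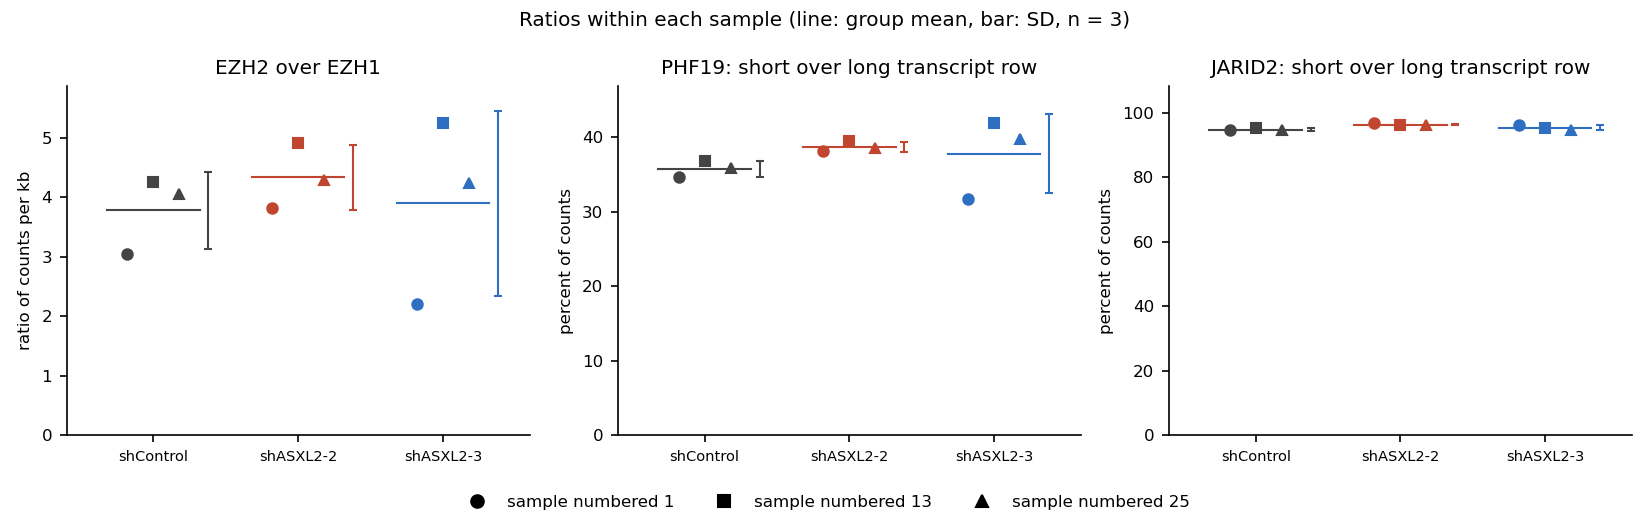
Ratios computed within each sample (vertical axes: ratio of counts per kb, or percent of counts) by group, with the marker for the sample number, the line for the mean and the bar for the SD (n = 3). The EZH2 to EZH1 ratio is lowest in the sample numbered 1 of each group, and the share of the short PHF19 row is higher in all 3 shASXL2-2 samples than in the control samples.

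The core subunits varied little. EED, which binds H3K27me3 and activates the enzyme (chr11:85912254-85989855, plus strand), was at 32.7, 31.8 and 31.0 CPM in the control samples, at 35.0, 31.4 and 31.7 CPM with shASXL2-2 and at 33.9, 37.1 and 34.2 CPM with shASXL2-3. All 3 shASXL2-3 samples lay above the control samples, whereas the shASXL2-2 samples overlapped them. Its log2 fold change was 0.040 with shASXL2-2, 0.14 (SE 0.090, 95% interval −0.061 to 0.34, adjusted p = 0.971) with shASXL2-3 and 0.090 (SE 0.078, 95% interval −0.085 to 0.27, adjusted p = 0.921) for both averaged. With the block the shASXL2-3 value of EED was 0.14 (SE 0.074, 95% interval −0.023 to 0.30, adjusted p = 0.327), so the difference did not pass the test in either fit.

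SUZ12, the scaffold of the complex (chr17:30264026-30328057, plus strand), was at 77.0, 86.0 and 86.4 CPM in the control samples. It was at 76.9, 88.8 and 87.7 CPM with shASXL2-2 and at 74.8, 85.4 and 83.8 CPM with shASXL2-3. The groups overlapped and the sample numbered 1 was again the lowest of each, and the log2 fold change for both averaged was −0.0043 (SE 0.084, 95% interval −0.19 to 0.18, adjusted p = 0.997). SUZ12 has a partial copy, SUZ12P1, which was at 12.3 to 16.4 CPM, and reads may be split between the 2 because the way multiply mapping reads were counted is not given in the sources used here. SUZ12P1 was highest in the sample numbered 1 of each group, where SUZ12 was lowest, and its log2 difference between the samples numbered 1 and the others, 0.20 (adjusted p = 0.0654), did not pass.

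RBBP4, a histone-binding subunit (chr1:33116743-33151812, plus strand), was at 324, 345 and 308 CPM in the control samples, at 360.2, 366 and 328 CPM with shASXL2-2 and at 304, 361 and 312 CPM with shASXL2-3. RBBP7, its close relative (chrX:16857406-16888485, minus strand), was at 210.4, 240.3 and 229, at 239, 245 and 228 and at 203, 264 and 229.7 CPM in the same order. Both overlapped between the groups. The log2 fold change averaged over both shRNAs was 0.056 (SE 0.088, 95% interval −0.14 to 0.25, adjusted p = 0.973) for RBBP4 and 0.052 (SE 0.095, 95% interval −0.16 to 0.27, adjusted p = 0.975) for RBBP7. Per kilobase RBBP7 was the most abundant of the 10 genes in the control cells, at 99.3 ± 6.60 CPM per kb (SD, n = 3), ahead of RBBP4 at 41.3 ± 2.36, PHF19 at 36.2 ± 2.64 and EZH2 at 27.1 ± 1.40. MTF2 followed at 22.1 ± 0.293 CPM per kb. SUZ12 at 18.5 ± 1.19 and JARID2 at 18.1 ± 1.10 CPM per kb did not differ beyond their spread, and EED stood at 15.2 ± 0.406. EZH1 was lower at 7.28 ± 1.08 CPM per kb, and PHF1 was the lowest at 1.23 ± 0.251.

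The accessory subunits were likewise close between the groups. JARID2 (chr6:15246300-15522273, plus strand), which defines 1 form of the complex and helps to recruit it, was at 113, 112 and 101 CPM in the control samples. It was at 110.4, 111 and 88.2 CPM with shASXL2-2 and at 112, 107 and 106 CPM with shASXL2-3, and the log2 fold change for both averaged was −0.040 (SE 0.092, 95% interval −0.25 to 0.17, adjusted p = 0.984). With the block and a correction for transcript length and GC content the value turned to 0.090, and that with shASXL2-3 from −0.0039 to 0.13, with adjusted p = 0.484 and 0.352. The shASXL2-2 sample numbered 25 was the lowest of the 9, and the other samples lay within 101 to 113 CPM.

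MTF2 (chr1:93544792-93604636, plus strand), a Polycomb-like protein that binds CpG-rich DNA, was at 91.3, 89.3 and 89.2 CPM in the control samples, at 92.2, 88.2 and 88.0 CPM with shASXL2-2 and at 88.6, 83.3 and 88.2 CPM with shASXL2-3. All 3 shASXL2-3 samples were below the control samples, by a small margin. The log2 fold change was −0.053 (SE 0.074, 95% interval −0.22 to 0.11, adjusted p = 0.981) with shASXL2-3 and −0.030 (SE 0.064, 95% interval −0.17 to 0.11, adjusted p = 0.983) for both averaged. MTF2 had an SD within groups of 0.037 on the log2 scale, and only 0.176% of the genes tested had a smaller one, against a median of 0.21 over all genes. EED followed with 0.067 and 3.72%. The within-group SD of EZH1, 0.33, exceeded that of 72.1% of genes, and the other members lay between 13.3% and 54.3%.

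PHF19 (chr9:123617929-123657174, minus strand), another Polycomb-like protein, was at 138, 154 and 158 CPM in the control samples. It was at 142, 171 and 153 CPM with shASXL2-2 and at 149.6, 169 and 164 CPM with shASXL2-3, where the groups overlapped and the sample numbered 1 was the lowest of each. The log2 fold change of PHF19 was 0.075 (SE 0.089, 95% interval −0.13 to 0.27, adjusted p = 0.957) for both averaged. PHF1 (chr6:33378176-33384230, plus strand), the third Polycomb-like protein, was the lowest member at 2.20, 2.79 and 3.33 CPM in the control samples, 3.11, 2.73 and 3.60 CPM with shASXL2-2, and 3.10, 2.69 and 3.49 CPM in the samples with shASXL2-3. These levels rest on 80 to 104 counts per sample, and the log2 fold change for both averaged was 0.17 (SE 0.19, 95% interval −0.26 to 0.60, adjusted p = 0.952).

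The level of PHF1 has to be read with its position. Within 250 kb of its start the annotation gives 20 other protein-coding genes whose symbols are in the files, and 17 of them averaged under 1 CPM, against 40.0% of all 17940 protein-coding genes matched. Genes that most cells express were among them, such as RPS18, a ribosomal protein gene, at 0.0821 CPM, and TAPBP, of the antigen-loading complex, at 0.309 CPM. DAXX, a histone chaperone, was at 0.936 CPM, and RING1, a subunit of the other Polycomb complex, at 0.0612 CPM. On the far side BAK1, a cell death gene 169.9 kb from the PHF1 start, was at 32.3 CPM. The median of the PHF1 neighbours was 0.0569 CPM, while in the 8 other windows of the same size that held any neighbour the medians ran from 4.51 CPM (RBBP4) to 98.3 CPM (MTF2). JARID2 had no such neighbour. The reason was not tested, and the level of PHF1 is therefore uncertain. This look at the neighbours was chosen after the low values had been seen.

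**Figure D3:**
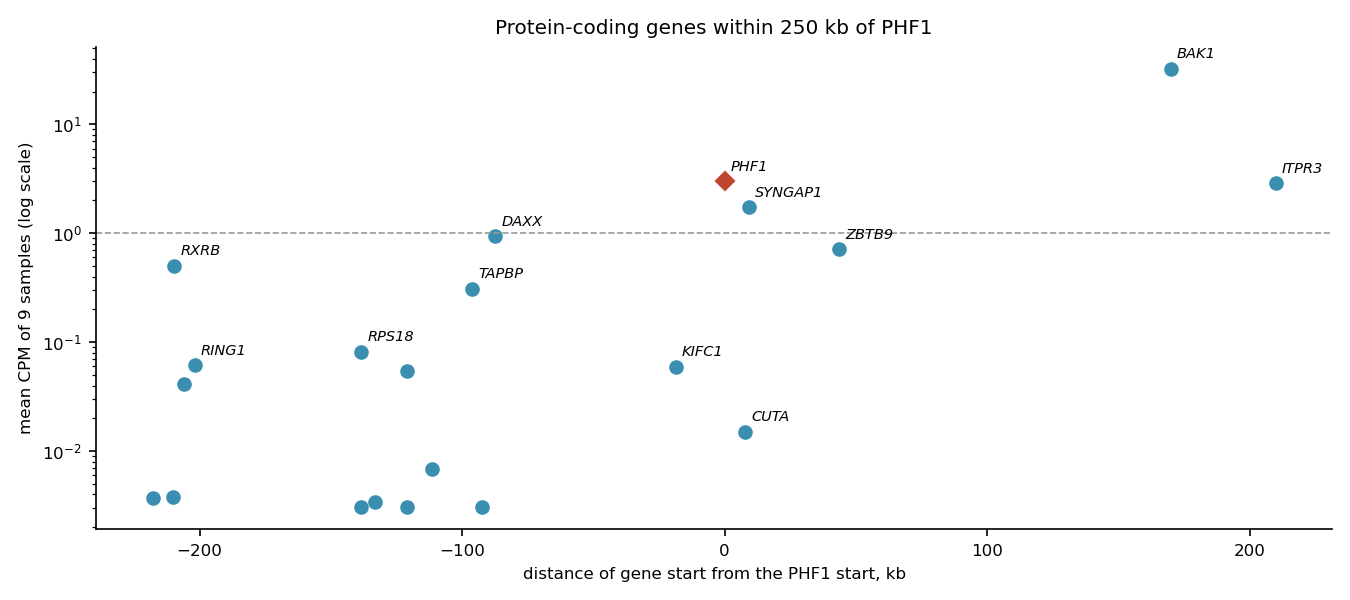
Mean CPM over the 9 samples (vertical axis, log scale) of the 20 protein-coding genes within 250 kb of PHF1 against the distance of their start from the PHF1 start in kb (horizontal axis), with PHF1 as a diamond and a dashed line at 1 CPM. Of the 20 genes, 17 lie under the line, and BAK1 stands at 32.3 CPM.

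The intervals state how large a difference these samples could hide. For both shRNAs averaged, 5 of the 10 estimates were positive and 5 negative, and their median was 0.024 on the log2 scale against 0.012 over all genes. Without the block, the intervals of the 8 members other than EZH1 and PHF1 lay within −0.25 and 0.27 (log2). With the block they lay within −0.18 and 0.23, while ASXL2 was at −1.09. The block interval of EZH1 was −0.34 to 0.15 and that of PHF1 −0.14 to 0.50. Differences inside these bounds could not be told from 0 with 3 samples in each group.

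**Figure D4:**
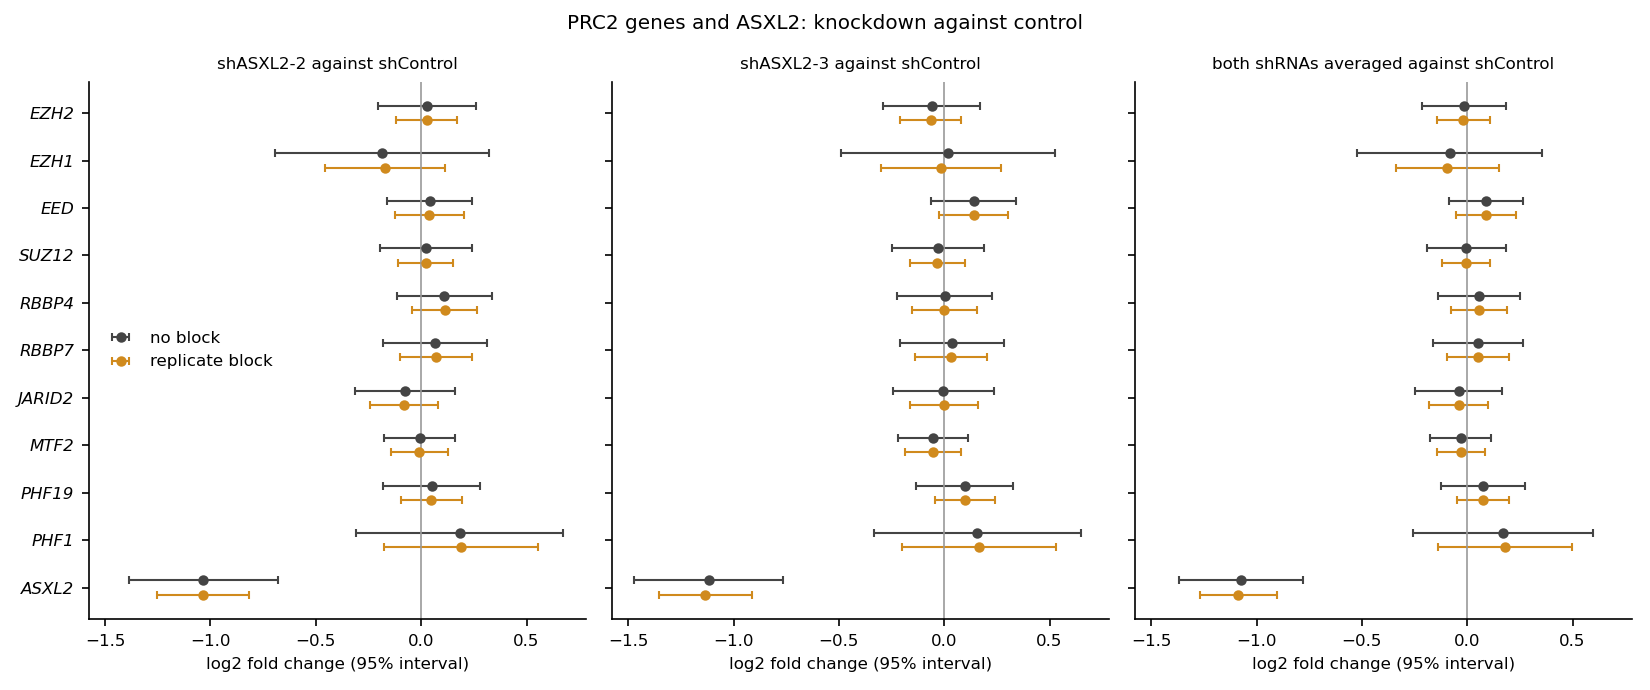
Log2 fold change (horizontal axis) with its 95% interval for the 10 PRC2 genes and ASXL2, for each shRNA and for both averaged against shControl, from edgeR without the block and with the replicate block. Every PRC2 interval includes 0, and ASXL2 lies near −1.

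Groups without overlap were counted for the members beside the share of all genes. With only 10 members these counts are near the shares, so they are not a result about the members. The shASXL2-2 and shControl samples overlapped for 10 of 10 members, whereas 14.9% of all genes tested showed no overlap. With shASXL2-3, EED above and MTF2 below the control samples made 2 of 10, where 10.1% of all genes showed none. Over all 6 knockdown samples 0 of 10 were separate from the control samples, against 4.77% of all genes. Between samples of the same number, RBBP4 was higher with shASXL2-2 than in the control in all 3 pairs, by 0.15, 0.09 and 0.09 on the log2 scale for the numbers 1, 13 and 25. Its log2 fold change was 0.11 with the block (SE 0.070, adjusted p = 0.414). EZH1 and JARID2 were lower with shASXL2-2 in all 3 pairs. PHF19 and EED were higher with shASXL2-3 in all 3 pairs and MTF2, SUZ12 and EZH2 lower in all 3, and none of these differences passed the test. No share of all genes is given for such agreement of pairs, so it is not a result about the members. Between the shRNAs the largest estimate was that of EZH1, 0.20 (SE 0.23, 95% interval −0.31 to 0.71, adjusted p = 0.998), and without the samples numbered 1 it was −0.088.

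More of the PRC2 genes passed the test between sample numbers than between shRNA groups. In the additive fit of group and number, 4 of the 10 members differed between the samples numbered 1 and those numbered 13 and 25, a share close to the 46.3% of all genes. EZH1 was higher in the samples numbered 1, with a log2 difference of 0.43 (SE 0.11, 95% interval 0.19 to 0.68, adjusted p = 0.00938). EZH2 was lower, with a log2 difference of −0.18 (SE 0.057, 95% interval −0.31 to −0.054, adjusted p = 0.0252). SUZ12 and PHF19 were lower too, with log2 differences of −0.18 (SE 0.052, 95% interval −0.29 to −0.065, adjusted p = 0.0166) and −0.18 (SE 0.057, 95% interval −0.30 to −0.053, adjusted p = 0.0257). The values of the other 6 ran from −0.15 (PHF1) to 0.10 (JARID2). The call of EZH1 held in each of the 9 fits that left out 1 sample. SUZ12 missed the threshold without the shControl sample numbered 1 (adjusted p = 0.0513) or the shASXL2-2 sample numbered 1 (0.0501). PHF19 missed it without the shControl sample numbered 1 (0.0840) or 25 (0.0623) or the shASXL2-2 sample numbered 1 (0.0711). EZH2 missed it without the shASXL2-2 sample numbered 1 (0.0527) or the shASXL2-3 sample numbered 1 (0.0937) or 25 (0.0511), and RBBP7 passed without the shASXL2-2 sample numbered 1 (0.0323). The count was thus 2 of 10 without the shControl or the shASXL2-2 sample numbered 1, fits that called 39.0% and 42.5% of all genes.

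**Figure D5:**
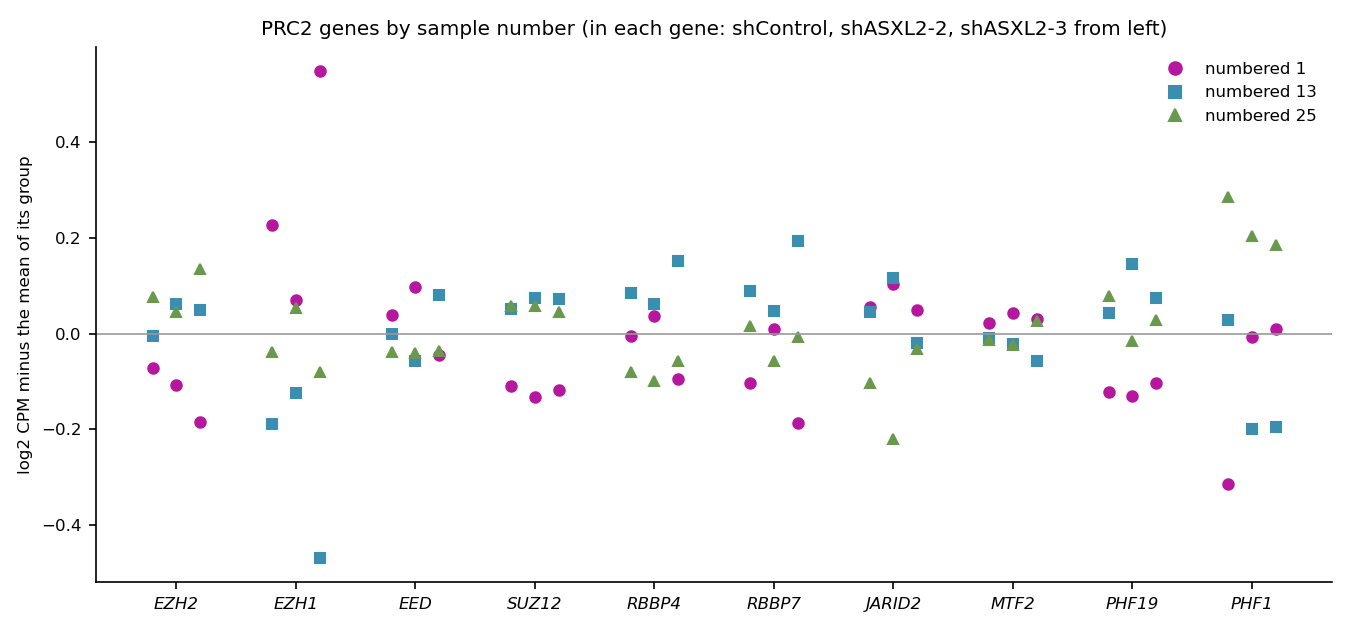
Log2 CPM of each PRC2 gene minus the mean of its group (vertical axis) for the 9 samples, with colour and marker for the sample number and the 3 groups side by side within each gene. The samples numbered 1 lie above 0 in EZH1 and below 0 in EZH2, SUZ12 and PHF19 in all 3 groups, and the shASXL2-3 samples of EZH1 are the most spread.

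Of 12 proliferation genes, all had lower estimates in the samples numbered 1 and 8 passed, with a median of −0.31 on the log2 scale, where 22.2% of all genes passed in that direction. MYBL2, a cell cycle transcription factor, stood at −0.48, MCM5, of the replicative helicase, at −0.43, and CCNE2 and CCNA2, cyclins of S phase, at −0.41 and −0.33. MKI67, the Ki-67 gene, was at −0.40, E2F1 at −0.34, CCNB1 at −0.29 and PCNA, the sliding clamp, at −0.27. Their part in the differences of EZH2, SUZ12, PHF19 and EZH1 was not tested. Between the samples numbered 25 and 13, 0 of the 10 PRC2 genes passed, against 5.87% of all genes. At an unadjusted p under 0.05, JARID2 (−0.16) and RBBP4 (−0.18) were lower in those numbered 25, which is 2 of 10 where 23.8% of all genes passed. Without the shASXL2-3 sample numbered 1, EZH1 (0.24, adjusted p = 0.0386) and RBBP4 (−0.17, adjusted p = 0.0426) passed, so the count was 2 of 10, where that fit called 19.2% of all genes.

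The genes whose profile over the 9 samples was nearest to that of EZH2, by the root mean square difference of centred log2 CPM, were SMC4, a condensin subunit, HNRNPUL2 and PI4KB, at 0.021, 0.028 and 0.029. The SD of EZH2 itself over the 9 samples was 0.11, and the median distance of all genes from it was 0.22. SMC4 was at 568, 582 and 619 CPM in the control samples, at 536, 610.4 and 606 CPM with shASXL2-2 and at 484, 578 and 606 CPM with shASXL2-3, with the sample numbered 1 the lowest of each group as in EZH2. The genes nearest to EZH1 were SYCP2L, HACE1 and LOC102724814, at 0.062, 0.069 and 0.074, where the SD of EZH1 was 0.29 and the median distance 0.35. These likenesses over 9 samples of 1 line are a description, with no test.

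Transcript rows of the same gene allowed a limited look at isoforms, since rows share most of their reads. None of the 29 rows passed for both shRNAs averaged, without or with the block. No share of all 30546 rows tested is given beside this count. Of all genes, 0% passed in this comparison without the block and 1.1% with it, so the count is not a result about the isoforms. The PHF19 row NM_001009936, a short isoform, held 34.6%, 36.8% and 35.8% of the counts of the long row NM_015651 in the control samples numbered 1, 13 and 25. These shares were 38.1%, 39.4% and 38.6% with shASXL2-2, all above the control samples, and 31.7%, 41.8% and 39.8% with shASXL2-3, where they overlapped. The short row itself was estimated at 0.17 for both averaged with the block (SE 0.066, unadjusted p = 0.0313, adjusted p = 0.191). In the samples numbered 1 it was lower, with a log2 difference of −0.34 (adjusted p = 0.00310), beside −0.19 for the long row.

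The short JARID2 row NM_001267040 held 94.6%, 95.3% and 94.5% of the counts of the long row NM_004973 in the control samples. It held 96.7%, 96.1% and 96.3% with shASXL2-2, again above the control samples, and 96.3%, 95.4% and 94.6% with shASXL2-3. Of the 5 members with rows that differed by over 1% in their totals, PHF19 and JARID2 were thus the 2 without overlap for shASXL2-2, and none lacked overlap for shASXL2-3. Among all 3993 symbols with such rows, 19.2% and 10.6% showed no overlap. With 3 samples against 3, no test was made of these shares.

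Genes related to PRC2 outside the 10 were examined as lists, whose counts at an adjusted p under 0.05 are given first. In the 4 comparisons of shRNA groups, 0% of all genes passed without the block and 0.106% to 1.1% with it. A count of 0 for the knockdown or between the shRNAs, here and in the lists that follow, thus says nothing about the genes listed. Of 4 other accessory genes tested, 0 passed, 2 had an unadjusted p under 0.05 with the block for both shRNAs averaged, against 20.4% of all genes, and all 4 estimates with shASXL2-3 were negative. The 2 were C10orf12 and LCOR, which share a locus, so they are not independent in these counts. C10orf12, whose locus encodes a PRC2-binding protein together with LCOR, was at 23.7, 20.5 and 27.3 CPM in the control samples. It gave 11.4, 17.1 and 14.6 CPM in the shASXL2-2 samples, and 13.5, 11.9 and 23.3 CPM in the shASXL2-3 samples. Its log2 fold change for both averaged was −0.64 (SE 0.22, 95% interval −1.13 to −0.16, adjusted p = 0.675) without the block and −0.66 (SE 0.16, adjusted p = 0.0709) with it. C10orf12 was lower than the control of the same number in 6 of 6 pairs, which are not independent because both shRNAs share the same control samples. No share of all genes is given for such pairs. The shASXL2-3 samples overlapped the control samples, with 23.3 CPM at number 25 against 20.5 CPM in the control sample numbered 13. LCOR was at −0.25 (adjusted p = 0.187, block). CXorf67, which encodes an inhibitor of EZH2, was at 0 in all samples.

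The H3K27 demethylases did not pass, with KDM6A at −0.13 and KDM6B at −0.13 for both shRNAs averaged (adjusted p = 0.906 and 0.973). KDM6B was higher in the samples numbered 1 (0.51). Of 5 chromobox genes, whose products bind H3K27me3, 0 passed for the knockdown, with CBX2 at −0.32 (adjusted p = 0.676) and CBX7, which was at 0.100 to 0.885 CPM, at 0.68 (adjusted p = 0.947). CBX7 (1.92) and CBX8 (0.44) were higher in the samples numbered 1, and CBX6 was higher in those numbered 25 than in those numbered 13 (0.73). CBX7 had 14, 16 and 26 counts in the samples numbered 1 and 3 to 7 in the others. It passed the filter on low counts only through the samples where it was high, so its call there is not a result. Of 10 genes of the ASXL and BAP1 complex tested, only ASXL2 passed, and only with the block, with ASXL1 at −0.14 and HCFC1 at −0.29 (adjusted p = 0.822 without and 0.108 with the block). In the samples numbered 1, OGT (0.65) and MBD5 (0.71) were higher and HCFC1 (−0.49), FOXK2 (−0.24) and BAP1 (−0.21) lower. These are 5 of 10, beside 2 of 5 chromobox genes (CBX7 among them) and 1 of 2 demethylases, where 46.3% of all genes passed. Between the numbers 25 and 13, CBX6 was 1 of 5, where 5.87% of all genes passed.

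RBBP4 and RBBP7 also belong to the NuRD, SIN3 and CAF-1 complexes. Of 17 genes of these complexes 0 passed for the knockdown, while 7 had an unadjusted p under 0.05 with the block for both shRNAs averaged, 4 higher and 3 lower, against 20.4% of all genes. Without the block the smallest p-values were those of CHD4, the NuRD remodeller, at −0.25 (adjusted p = 0.728) and HDAC1, a deacetylase, at 0.13 (adjusted p = 0.800). CHD3 was at −0.27 with the block (adjusted p = 0.0952). In the samples numbered 1, 9 of the 17 differed, a share near the 46.3% of all genes. CHD3 (0.41), MTA3 (0.30) and MTA1 (0.18) were higher. GATAD2A (−0.49), CHAF1B (−0.38), MBD3 (−0.34), MTA2 (−0.34), CHAF1A (−0.25) and MBD2 (−0.19) were lower, as EZH2 and SUZ12 were. Between the numbers 25 and 13, SIN3B was higher (0.36), and GATAD2B (−0.31) and SIN3A (−0.30) lower, which is 3 of 17 where 5.87% of all genes passed.

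Of 12 genes classically silenced through PRC2, HOXA9, HOXA10, MEIS1, GATA4, SOX1 and OLIG2 were at 0 in all 9 samples, knockdown and control alike. The other 6 were tested, and 0 passed for the knockdown, where 0% of all genes passed without the block and at most 1.1% with it. This count does not show that the 6 genes were unchanged. GATA6, a developmental transcription factor, was at 10.5, 8.78 and 13.8 CPM in the control samples, 13.5, 11.1 and 18.6 CPM with shASXL2-2, and 11.6, 9.66 and 14.6 CPM in the samples with shASXL2-3, so that the groups overlapped, while it was higher than in the control of the same number in 6 of 6 pairs. Both shRNAs share the same control samples, so these pairs are not independent, and no share of all genes is given for them. GATA6 was estimated at 0.25 for both averaged (adjusted p = 0.918, and 0.119 with the block). WT1 was at 0.087 (adjusted p = 0.970). By number, CDKN1C, a cyclin-dependent kinase inhibitor, was higher (1.54) and WT1 lower (−0.28) in the samples numbered 1, and GATA6 was higher in those numbered 25 than in those numbered 13 (0.66). These are 2 of 6 and 1 of 6, where 46.3% and 5.87% of all genes passed.

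Among the proliferation genes MKI67 was at −0.41 and E2F2 at −0.16 for both shRNAs averaged (adjusted p = 0.742 and 0.903), and with the block MKI67 was at −0.44 (adjusted p = 0.0727). All 12 estimates between the shRNAs were negative, lower with shASXL2-3, with a median of −0.11, and 0 passed. Within sample numbers, the shASXL2-3 sample was the lower one for 12 of the 12 genes at number 1, for 7 at number 13 and for 6 at number 25. Of the line's own markers RUNX1 was at −0.19 and RUNX1T1 at −0.13 (adjusted p = 0.789 and 0.858), and PTPRC (0.75) and KIT (0.36) were higher in the samples numbered 1, as was PECAM1 (0.88). PTPRC and KIT are 2 of 5 markers tested, where 46.3% of all genes passed.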

How the data were processed

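The counts were deposited by the authors as whole numbers per RefSeq transcript row on hg19 (GRCh37), not normalized, with 48104 rows per sample. The submitters' processing notes name STAR, featureCounts and DESeq2 without their roles, and per the study's methods the poly(A) libraries kept no strand. How multiply mapping reads were counted is not given in the sources used here. Rows of a gene share reads, and totals were 62079356 to 79254366 counts over all rows against 27714431 to 35406063 with 1 row per gene, so the row with the highest total stood for each symbol. Without strand, reads of overlapping antisense genes cannot be told apart.

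Counts were tested with edgeR 4.0.16 in R 4.3.3 (quasi-likelihood F test, TMM scaling, filterByExpr with a minimum count of 10 and a total of 15, Benjamini-Hochberg adjustment over all genes of a comparison, threshold 0.05). All 9 samples entered each fit, with the group alone (6 residual degrees of freedom) or with the sample number as a block (4). CPM used TMM library sizes, log2 CPM a prior count of 2, and standard errors and 95% intervals came from the fit. Transcript lengths (MANE Select) and positions came from GENCODE v44lift37 on GRCh37, and promoter windows from RefSeq. The labels do not say that the samples came from separate cultures, so p-values measure the spread between these samples, which may be technical, although the study describes them as biological triplicates.

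The numbers 1, 13 and 25 paired the samples: deviations from the group means correlated at 0.398 to 0.731 over genes in all 9 pairs with the same number, and at 0.306 or less in the 18 pairs with different numbers. The pairing was read from the data and not from the labels. In the comparisons of shRNA groups, the block and the fit without it both called 0 of the 10 PRC2 genes. The fit without the block called 0% of all genes there, so this likeness says nothing about the members.

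The members, the gene lists and the tests were chosen with earlier results of these data known. All members and ASXL2 were named, and from each list the genes that passed in any comparison or had 1 of the 2 smallest p-values for both shRNAs averaged. The fits were tested on simulated counts. Alternatives were the block, DESeq2 1.42.0 (size factors, Wald test), no filter, a length and GC correction, each transcript row as a feature, and leaving out samples.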

Additional observations from a re-analysis of the deposited data

How the results depend on the processing

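The call of 0 of 10 PRC2 genes for each shRNA, both averaged and one shRNA against the other was found under every alternative run: the replicate block, DESeq2's size factors and Wald test, no filter, length and GC correction, transcript rows, without the 3 samples numbered 1, and without each sample. DESeq2's size factors, no filter, and leaving out the samples numbered 1 without the block called 0 of all genes in each of these comparisons. The fits without 1 sample called at most 2 of all genes. A count of 0 members from these fits says nothing about the members. Over all genes, the calls for both shRNAs averaged were 0 without the block, 156 with it, 56 with DESeq2's Wald test, 629 with that test and the block, 155 with the block on genes with a length, 28 with the block and the length and GC correction on the same genes, 370 without the samples numbered 1 with the block, and up to 2 without 1 sample. For the samples numbered 1 the PRC2 count ranged from 2 to 4 over the fits without 1 sample, and for 25 against 13 from 0 to 2, where the same fits called 33.7% to 43.8% and 0.348% to 19.2% of all genes. Signs of members changed only where the value stayed uncalled. With the replicate block the sign turned to −0.015 for EZH1 for shASXL2-3 and −0.000059 for RBBP4 for shASXL2-3. With DESeq2 and the replicate block the sign turned to −0.017 for EZH1 for shASXL2-3 and −0.00025 for RBBP4 for shASXL2-3. Without the filter the sign turned to −0.0020 for RBBP4 for shASXL2-3. With the replicate block on genes with a length the sign turned to −0.015 for EZH1 for shASXL2-3. With the replicate block and the length and GC correction the sign turned to −0.0065 for EED for shASXL2-2, 0.046 for JARID2 for shASXL2-2, 0.0041 for SUZ12 for shASXL2-3, 0.13 for JARID2 for shASXL2-3, 0.00051 for EZH1 for both averaged, 0.023 for SUZ12 for both averaged and 0.090 for JARID2 for both averaged. Without the 3 samples numbered 1 the sign turned to −0.18 for EZH1 for shASXL2-3, 0.018 for EZH2 for both averaged, 0.0037 for SUZ12 for both averaged and −0.088 for EZH1 between the shRNAs. Without these 3 samples and with the replicate block the sign turned to −0.19 for EZH1 for shASXL2-3, 0.00016 for JARID2 for shASXL2-3, 0.018 for EZH2 for both averaged, 0.0036 for SUZ12 for both averaged and −0.095 for EZH1 between the shRNAs. Leaving out 1 sample at a time turned the sign for shASXL2-2 in EZH2 −0.0083 to 0.079, EED −0.010 to 0.069, SUZ12 −0.030 to 0.086, JARID2 −0.13 to 0.015, MTF2 −0.030 to 0.0033 and PHF19 −0.023 to 0.11. Leaving out 1 sample at a time turned the sign for shASXL2-3 in EZH1 −0.31 to 0.23, EZH2 −0.13 to 0.023, SUZ12 −0.084 to 0.022, RBBP4 −0.078 to 0.045, RBBP7 −0.065 to 0.12 and JARID2 −0.048 to 0.024. Leaving out 1 sample at a time turned the sign for both averaged in EZH1 −0.25 to 0.039, EZH2 −0.052 to 0.027, SUZ12 −0.057 to 0.029 and JARID2 −0.087 to 0.0082. Leaving out 1 sample at a time turned the sign between the shRNAs in EZH1 −0.12 to 0.42. Leaving out 1 sample at a time turned the sign for number 1 in EED −0.0052 to 0.10, RBBP4 −0.076 to 0.022 and PHF1 −0.23 to 0.0031. The cause of these changes was not tested. Small differences are limited by 3 samples a group, and PHF1 by its 80 to 104 counts. Log2 fold changes for both shRNAs averaged also moved with transcript length. Medians ran from 0.10 in the shortest of 5 length classes to −0.10 in the longest. RBBP4 and JARID2 belong to the longest. So do MKI67, LCOR, HCFC1, CHD3 and CHD4, among others, whose lower estimates with knockdown are given above.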
